A study of Mus musculus with 12 samples.

Results

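The Zfp genes are a numbered series of mouse genes named for zinc finger proteins. They were followed through the last stages before implantation in 12 RNA-seq libraries of mouse embryos. The set was chosen by mean level and took every row named Zfp plus a number, except Zfp42 and Zfp57, whose deposited value averaged at least 1 over all 12 libraries. A value of 1 equals 3.582 CPM, the count of a gene's reads scaled to a common library size. It held 225 of the 339 Zfp rows, and 225 of the 10751 genes of any name that reached that mean. Another 112 Zfp rows stayed under it, of which 31 passed it in at least 1 library and 2 were listed at 0 throughout. Because the mean level chose the genes, their levels are a description and no test was run on them.

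The embryos were of the CD1 strain, an outbred stock. Zygotes received either siRNA against Tdgf1, which encodes the Nodal co-receptor Cripto, or a negative control siRNA, in both cases with GFP mRNA as an injection marker, so the control embryos were injected too. Embryos were profiled as morulae, early blastocysts and late blastocysts, which gave 6 groups of 2 libraries: at each of the 3 stages 2 with Tdgf1 siRNA and 2 with control siRNA. The labels give neither the number of embryos in a library nor whether the 2 libraries of a group came from separate injections, so p-values measure the spread between libraries, which may be technical. A library mixes all cells of an embryo, so fewer cells of a type and less RNA per cell cannot be told apart.

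Most Zfp genes encode proteins with tandem C2H2 zinc fingers, short modules that hold a zinc ion and contact DNA. Many mouse members also carry a KRAB domain, which binds Trim28 and through it brings in histone methyltransferases that silence transposable elements and imprinted loci. KRAB genes have multiplied in clusters and are often near-copies of each other. Others of the series are transcription factors of embryonic stem cells, RNA-binding proteins or ribosome factors that share no more than a name and a finger.

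In GENCODE release M21, 224 of the 225 genes were found and 221 were protein coding. A search of each gene's longest reading frame found at least 1 C2H2 finger in 216 and none in 5, namely Zfp36, Zfp185, Zfp330, Zfp703 and Zfp839. Zfp36 is the CCCH-finger protein tristetraprolin and Zfp185 a LIM-domain protein of the actin cytoskeleton, so the name does not always mark a C2H2 protein. A KRAB motif was found in 115 genes, with a median of 12 fingers, and not in 106, with a median of 7. The motif was F..EEW..L or LY..V[ML].E, where a dot is any residue and brackets hold alternatives. A KRAB domain that varies from both strings was missed, so genes without the motif are not shown to lack the domain. Zfp125, Zfp640 and Zfp939 are annotated as pseudogenes and Zfp191 had no match.

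The proximal promoters of 4 genes, 2 that rose and 2 that fell between morula and late blastocyst, are shown as examples. Each was taken from RefSeq (build GRCm38.p6), runs 5′ to 3′ on the gene's own strand from 250 bases before to 50 bases after the start, and carries capitals where it matches GGGCGG (a GC box), CCAAT or TATAAA on either strand. The genes were the leaders in each direction with 1 RefSeq start and under 10% of coding 50-mers shared with another gene. Zfp931 lies at chr2:178078376-178078675 (minus strand), Zfp64 at chr2:168955538-168955837 (minus strand), Zfp820 at chr17:21845710-21846009 (minus strand) and Zfp936 at chr7:43177340-43177639 (plus strand).
Zfp931: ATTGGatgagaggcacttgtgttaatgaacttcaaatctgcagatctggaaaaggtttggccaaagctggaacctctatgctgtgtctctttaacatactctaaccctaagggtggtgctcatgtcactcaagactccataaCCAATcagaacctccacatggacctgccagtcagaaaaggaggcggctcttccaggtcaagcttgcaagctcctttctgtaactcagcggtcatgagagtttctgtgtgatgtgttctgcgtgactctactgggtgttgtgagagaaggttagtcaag
Zfp64: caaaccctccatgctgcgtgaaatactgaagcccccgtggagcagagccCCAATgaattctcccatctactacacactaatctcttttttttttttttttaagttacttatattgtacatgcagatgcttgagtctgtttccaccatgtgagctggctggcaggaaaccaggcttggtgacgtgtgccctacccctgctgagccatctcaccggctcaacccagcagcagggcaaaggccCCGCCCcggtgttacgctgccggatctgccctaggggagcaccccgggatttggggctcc
Zfp820: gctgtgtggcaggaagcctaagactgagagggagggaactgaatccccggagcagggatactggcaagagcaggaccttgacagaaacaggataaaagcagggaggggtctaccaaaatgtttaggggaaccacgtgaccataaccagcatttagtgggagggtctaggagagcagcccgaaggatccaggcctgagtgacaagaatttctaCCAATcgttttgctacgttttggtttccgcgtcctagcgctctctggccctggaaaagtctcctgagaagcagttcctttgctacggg
Zfp936: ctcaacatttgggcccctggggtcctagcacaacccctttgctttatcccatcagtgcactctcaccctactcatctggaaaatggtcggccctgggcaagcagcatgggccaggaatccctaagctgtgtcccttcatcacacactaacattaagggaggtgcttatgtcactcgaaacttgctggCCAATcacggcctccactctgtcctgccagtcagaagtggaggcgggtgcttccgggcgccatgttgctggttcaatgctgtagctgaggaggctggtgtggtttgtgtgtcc
The Zfp931 promoter held 2 CCAAT matches, one of them reversed at its very first bases, and no GC box. The Zfp64 promoter had 1 CCAAT match and 1 reversed GC box, and those of Zfp820 and Zfp936 had 1 CCAAT match and no GC box. None of the 4 held TATAAA. RefSeq promoters were found for 184 of the genes (231 promoters), of which 50.6% held CCAAT, 49.4% the GC box and 6.93% TATAAA. Over all 32851 promoters in the table these shares were 37.4%, 35.7% and 13.6%, and over the promoters of the other genes that reached the mean they were 38.1%, 64.4% and 6.50%. Promoters of the Zfp genes that fell between morula and late blastocyst (55 promoters of 42 genes) held CCAAT in 56.4% and the GC box in 54.5%. Those of the genes that rose (33 promoters of 28 genes) held each in 60.6%. Those of the Zfp genes that did not pass (143 promoters of 114 genes) held CCAAT in 46.2% and the GC box in 44.8%, and the differences were not tested. A match is a string of letters, not a site shown to be bound, and the motifs can share bases where they abut.

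The libraries held 10524640 to 13770264 reads, and all 225 genes had at least 3 reads in each. Embryo lineage markers (10 of 10 past the level filter) summed to 1510 to 7730 CPM, against 3.67 to 23.2 CPM for 6 cumulus and granulosa markers (1 past the filter), 0.309 to 3.97 CPM for 5 blood markers, with Hbb-bt at 0 in every library, and 0 to 2.38 CPM for 4 markers of the 2-cell embryo. Tdgf1 itself was at 42.6% to 83.6% of its control in 5 of 6 same-numbered pairs. In the early blastocyst library labelled Tdgf1 siRNA replicate 2 it was not lower, at 15.2 CPM against 13.1 CPM in the control library of the same number. Both early blastocyst libraries of replicate 2 also stood nearer the morulae, at -15.9 and -20.2 on the first principal component of all genes, where replicate 1 was at 1.20 and 6.01, the morulae at -50.3 to -46.0 and the late blastocysts at 46.9 to 60.5.

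One gene supplied a large share of all Zfp RNA. Zfp706, which in mouse embryonic stem cells holds back Klf4 and is needed to leave self-renewal, averaged 1536 CPM, and per kilobase of exon its mean level of 308 CPM was far above the next, 42.7 CPM per kilobase for Zfp593. Zfp593, whose yeast relative acts in building the large ribosomal subunit, was followed per kilobase by Zfp207 (39.0), a spindle protein that stabilises Bub3, and Zfp296 (33.5), a heterochromatin and pluripotency factor. Next came Zfp830 (24.6), Zfp820 (23.4), Zfp637 (23.3), Zfp568 (22.4), Zfp511 (20.2) and Zfp655 (19.9 CPM per kilobase). The median Zfp gene stood at 12.9 CPM, 84 genes averaged under 10 CPM and 5 averaged at least 100 CPM. At the threshold, Zfp458, Zfp39 and Zfp563 were just inside with means of 3.62, 3.64 and 3.69 CPM, and Zfp558, Zfp579 and Zfp709 just outside with 3.57, 3.49 and 3.40 CPM. Zfp352, a gene of the 2-cell stage, was under the mean, at 0.819, 0 and 0.725 CPM in morulae, early blastocysts and late blastocysts.

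The summed level of the 225 genes was 7650 to 7930 CPM in the 4 morula libraries, 5965 to 6462 CPM in early blastocysts and 5248 to 5670 CPM in late blastocysts, and the 3 ranges did not overlap. Zfp706 accounted for 28.6% to 31.8% of the sum in morulae, 19.9% to 27.4% in early blastocysts and 14.6% to 15.99% in late blastocysts. Without Zfp706 the sum was 5219 to 5641 CPM, 4550 to 5160 CPM and 4467 to 4763 CPM at the 3 stages, so early and late blastocysts then overlapped. The median gene did not follow the sum and lay at 12.4 to 13.6 CPM in morulae, 11.9 to 14.3 CPM in early blastocysts and 12.4 to 14.1 CPM in late blastocysts. The summed level therefore carries mainly the abundant genes.

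Between morula and late blastocyst the Zfp genes moved in both directions. Zfp820, Zfp960 and Zfp239 fell by the largest log2 changes, Zfp706 had the largest difference in CPM, and Zfp931, Zfp248 and Zfp64 rose by the largest log2 changes. By limma on log2 values, with the same-numbered libraries of both siRNA arms averaged to 2 values a stage (adjusted p under 0.05 over 10751 genes), 37 of the 225 (16.4%) were higher in late blastocysts than in morulae and 51 (22.7%) lower. Over all genes tested 51.7% passed, 31.4% as higher and 20.3% as lower. The median change of the 225 was -0.06 on the log2 scale beside 0.13 for all genes tested, and 102 of 225 values were positive beside 56.8% of all genes. After quantile normalization, which takes the 0.13 shift of the median gene to -0.07, the split became 19 higher and 85 lower, which held 19 of the 37 rises and all 51 falls. The median of the 225 was then -0.33, and no share of all genes called is given for that fit. In the values as deposited, the rises ranged from 0.55 to 2.55 and the falls from 0.42 to 2.47 in size on the log2 scale. All 88 changes had the same sign within the Tdgf1 siRNA libraries alone and within the control libraries alone. The calls were made on the means of both arms, so this agreement was nearly fixed in advance and is a description only.

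**Figure D1:**
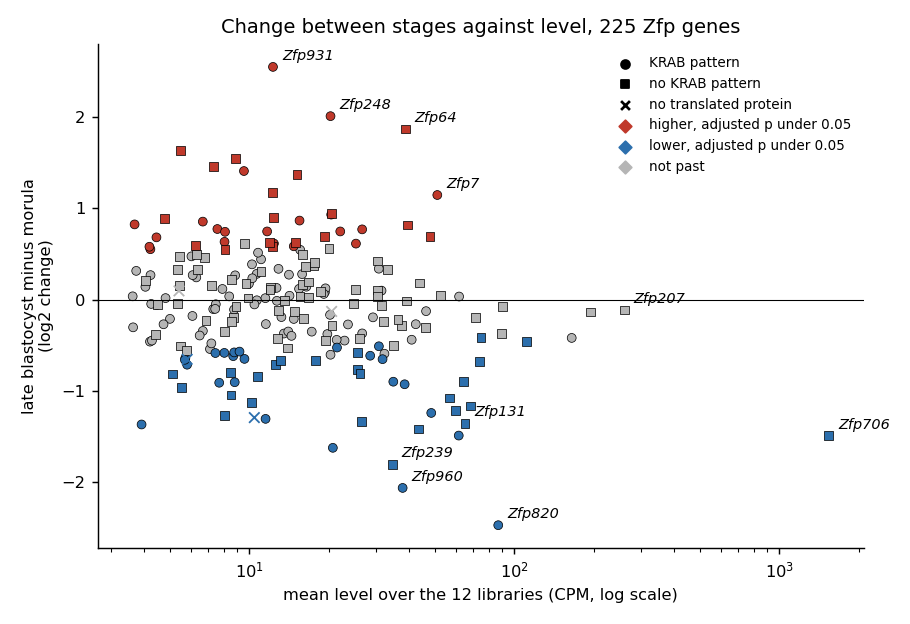
Log2 change between late blastocyst and morula (vertical) against mean level over the 12 libraries (CPM, log axis) for 225 Zfp genes, with symbols for the KRAB motif and colours for the limma call. Of the 20 genes at 50 CPM or more, 11 are blue (lower in late blastocysts) and 1 is red (higher).

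Abundant genes were called mostly in 1 direction. Of the 20 genes averaging 50 CPM or above, 11 fell and 1, Zfp7, rose. Of all genes tested at that level 29.7% fell and 29.0% rose. Among the 84 genes under 10 CPM, 18 fell and 15 rose, where 13.7% and 33.4% of all genes tested did so. The log2 scale carries a pseudocount of 3.582 CPM, which shrinks the changes of low genes. At 1 or more stages 24 of the 225 had a mean under the level filter and so owe their place in the set to another stage, and 9 of them were called higher and 5 lower. Those named below are Zfp931, Zfp37, Zfp516, Zfp317, Zfp563 and Zfp839, called higher, and Zfp52, Zfp28, Zfp418 and Zfp703, called lower, and for these the filter favours a difference.

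Zfp820, a KRAB gene with 12 fingers on chromosome 17 (chr17:21816885-21845772), had the largest fall on the log2 scale. In morulae it stood at 155 and 161 CPM with Tdgf1 siRNA and at 190 and 141 CPM with control siRNA. In early blastocysts it was at 99.0 and 59.6 CPM with Tdgf1 siRNA and at 37.5 and 93.0 CPM with control siRNA, and in late blastocysts at 34.2 and 24.3 CPM against 19.6 and 28.4 CPM. Every late blastocyst library was thus under every morula library, and the 2 arms overlapped at each stage. The change from morula to late blastocyst was -2.47 ± 0.16 (log2, SE; limma, adjusted p = 5.17e-06), and each of the 2 steps passed by itself (-1.21 and -1.26).

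Zfp706 was at 2289 and 2397 CPM with Tdgf1 siRNA and 2192 and 2431 CPM with control siRNA in morulae. It was at 1302 and 1716 CPM against 1189 and 1605 CPM in early blastocysts, and at 907 and 768 CPM against 807 and 830 CPM in late blastocysts. The 3 stages did not overlap, and the change was -1.49 ± 0.16 (log2, SE; limma, adjusted p = 6.86e-05). An antisense transcript, Gm26766, overlaps its exons, and without strand information its reads cannot be told apart from those of Zfp706.

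The near-copies Zfp960 and Zfp97, KRAB genes on chromosome 17, both fell, by 2.06 and 1.62 on the log2 scale. They share 81.0% and 77.6% of their coding 50-mers, so how the reads were divided between them is uncertain. Zfp239 averaged 54.9 ± 15.9, 36.0 ± 6.77 and 12.9 ± 2.38 CPM over morulae, early blastocysts and late blastocysts (SD, n = 4). Zfp936 averaged 104 ± 8.77, 46.2 ± 12.2 and 35.0 ± 6.19 CPM, and Zfp217, whose protein ties Nanog and Sox2 expression to RNA methylation in mouse embryonic stem cells, 43.4 ± 9.79, 20.8 ± 2.33 and 15.2 ± 4.43 CPM. Late blastocyst and morula libraries did not overlap for 92 of the 225 Zfp genes (40.9%), where 58.9% of all genes tested did not overlap between these stages.

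Zfp931, a KRAB gene with 7 fingers, was nearly silent in morulae, at 2.85 and 1.92 CPM with Tdgf1 siRNA and 0.280 and 0.665 CPM with control siRNA. It reached 19.7 and 6.05 CPM against 7.28 and 5.01 CPM in early blastocysts, and 18.8 and 20.8 CPM against 28.9 and 35.0 CPM in late blastocysts. The Tdgf1 siRNA libraries were above the controls in morulae and under them in late blastocysts, with no overlap at either stage. All 4 morula libraries were under the level filter, so Zfp931 is in the set through its later stages, and its change of 2.55 ± 0.26 (log2, SE) is given as a description. At 3 reads in a library, 0.218 to 0.285 CPM, the morula controls are close to the limit of detection, so the size of the rise in CPM is poorly fixed.

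Zfp64, a regulator of the MLL gene in human leukaemia cells, stood at 19.0 and 17.6 CPM with Tdgf1 siRNA and 13.3 and 13.3 CPM with control siRNA in morulae. It was at 35.8 and 29.5 CPM against 45.8 and 25.6 CPM in early blastocysts and at 65.5 and 66.5 CPM against 65.5 and 68.8 CPM in late blastocysts. Its stages did not overlap and it rose by 1.87 ± 0.20 (log2, SE; adjusted p = 6.08e-05). Zfp248, a KRAB gene, averaged 6.42 ± 2.02, 17.9 ± 5.84 and 36.4 ± 5.53 CPM over the 3 stages (SD, n = 4), and Zfp37 1.02 ± 0.437, 4.597 ± 1.10 and 10.9 ± 2.93 CPM.

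Zfp185, the LIM-domain protein, averaged 3.84 ± 1.71, 4.72 ± 1.64 and 18.0 ± 4.57 CPM. Zfp516, known in mouse as an activator of the brown fat programme, averaged 2.88 ± 0.896, 4.71 ± 1.97 and 14.3 ± 3.16 CPM, and Zfp7 34.2 ± 6.08, 39.8 ± 5.90 and 79.4 ± 4.98 CPM (SD, n = 4 throughout). Zfp488, which acts in oligodendrocyte formation, split by replicate number in late blastocysts, with 38.8 CPM in the Tdgf1 siRNA and 37.3 CPM in the control library of replicate 1 and 21 and 17.5 CPM in those of replicate 2. Zfp62 (1.17) and Zfp934 (1.41) completed the 10 largest rises on the log2 scale, with Zfp934 sharing 53.2% of its coding 50-mers with Zfp808.

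**Figure D2:**
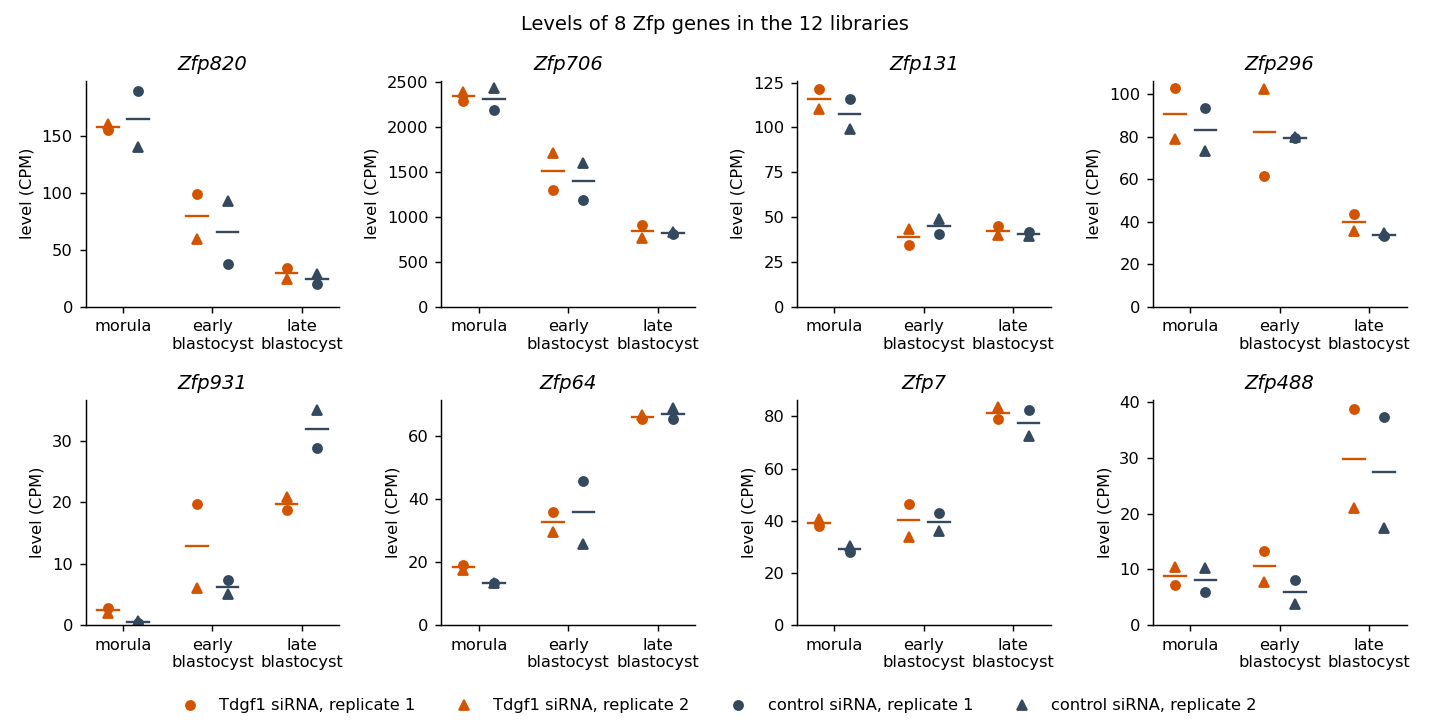
Levels (CPM) of 8 Zfp genes by stage, with Tdgf1 siRNA libraries in orange left of control siRNA libraries in dark blue, circles for replicate 1, triangles for replicate 2 and short lines for the mean of 2. Zfp820 and Zfp706 step down at both transitions, Zfp131 is at its low level by the early blastocyst, Zfp296 steps down between early and late blastocyst, and the 4 genes of the lower row are highest in late blastocysts.

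The interval was also read as 2 steps, in which early blastocysts were set against morulae and late blastocysts against early ones. Of the 225, 27 passed between morula and early blastocyst, 5 higher and 22 lower, where 20.5% of all genes tested passed (12.1% higher and 8.38% lower). Between early and late blastocyst 36 passed, 14 higher and 22 lower, where 31.9% of all genes passed (19.7% higher and 12.2% lower). With quantile normalization these splits were 5 higher and 27 lower, and 9 higher and 51 lower, with no share of all genes given for those fits. Of the 51 genes lower in late blastocysts than in morulae, 13 passed in the first step only, 15 in the second only, 4 in both and 19 in neither. Of the 37 higher genes, 1 passed in the first step only, 10 in the second only, 4 in both (Zfp931, Zfp248, Zfp64 and Zfp37) and 22 in neither.

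Zfp131, which in human cells is a BTB-domain transcription factor, had its whole fall in the first step. Its morula libraries were at 122 and 110 CPM with Tdgf1 siRNA and at 116 and 99.4 CPM with control siRNA. Early blastocysts were at 34.5 and 43.5 CPM against 40.8 and 48.9 CPM, and late blastocysts at 45.0 and 39.7 CPM against 41.9 and 39.4 CPM. The blastocyst stages overlapped each other and neither reached the morulae. Zfp52 averaged 9.06 ± 1.34, 1.35 ± 0.908 and 1.34 ± 0.699 CPM (SD, n = 4) and Zfp821 75.1 ± 16.3, 30.0 ± 14.6 and 25.7 ± 4.0 CPM, with the early blastocyst libraries of Zfp821 at 19.4 and 16.5 CPM in replicate 1 and 36.8 and 47.35 CPM in replicate 2. Zfp317, a KRAB gene, averaged 3.13 ± 1.71, 8.44 ± 3.84 and 8.43 ± 1.90 CPM and was the 1 gene that rose in the first step only.

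Genes whose call lay in the second step included Zfp637 at 78.1 ± 2.65, 69.2 ± 9.01 and 31.8 ± 2.76 CPM, Zfp296 at 87.0 ± 13.5, 80.7 ± 16.8 and 36.7 ± 4.75 CPM, and Zfp948 at 9.43 ± 2.59, 7.09 ± 2.47 and 18.5 ± 5.15 CPM (SD, n = 4). The second step minus the first, a comparison added after the data were seen, differed from 0 for 3 genes (6.12% of all genes tested passed). These were Zfp131 (1.34 ± 0.28), Zfp52 (1.37 ± 0.34) and Zfp395 (-1.67 ± 0.35; log2, SE), with adjusted p-values by limma of 0.0269 for Zfp131 and 0.0273 for Zfp395, while Zfp52 is in the set through its morula level and did not pass with the replicate block. Zfp395 peaked in early blastocysts, at 19.0 and 17.1 CPM with Tdgf1 siRNA and 21.7 and 19.1 CPM with control siRNA, and its late blastocyst libraries lay at 5.09 to 9.80 CPM. No other gene passed that comparison, the late movers above included. It gave 0 calls without replicate 1 or replicate 2 of the morulae or of the late blastocysts, and 6 without replicate 1 of the early blastocysts.

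**Figure D3:**
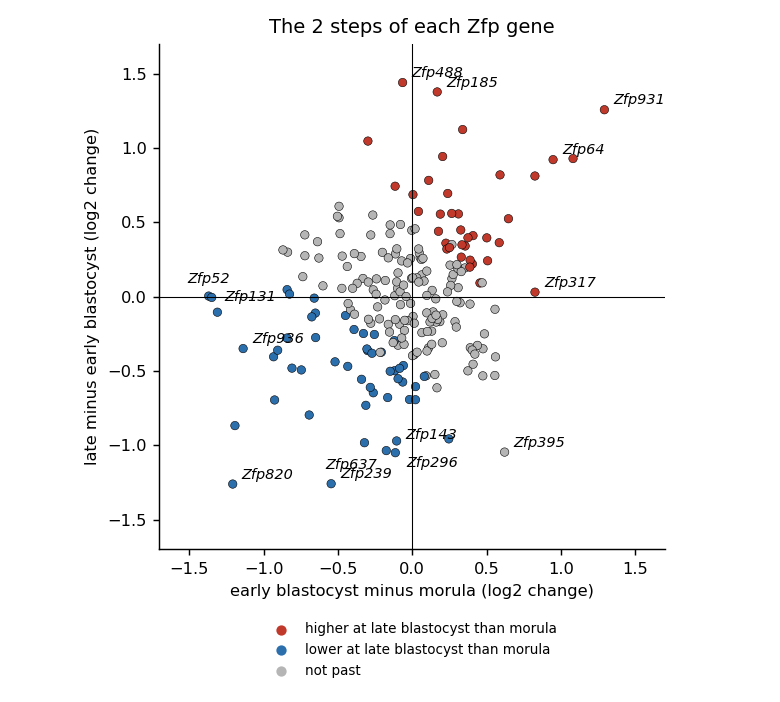
Log2 change from early to late blastocyst (vertical) against that from morula to early blastocyst (horizontal) for 225 Zfp genes, coloured by the limma call between late blastocyst and morula. Zfp820 and Zfp931 lie along the diagonal, Zfp52 and Zfp131 on the horizontal axis and Zfp143, Zfp296 and Zfp637 near the vertical axis. The early blastocyst is shared by both axes with opposite sign, so noise in it spreads points along the falling diagonal.

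The number of calls varied with the libraries kept, and no share of all genes is given beside these counts. In place of 88, the late blastocyst and morula comparison had 54 without replicate 1 of the morulae, 54 without replicate 1 of the late blastocysts and 44 without replicate 2 of the late blastocysts, in fits on fewer libraries. Past the threshold in every alternative run were 4 risers (Zfp7, Zfp64, Zfp248 and Zfp710) and 15 fallers, among them Zfp820, Zfp706, Zfp131, Zfp143, Zfp217, Zfp281, Zfp296, Zfp936 and Zfp932. Of the other genes named by rule, Zfp326, Zfp445, Zfp488, Zfp655, Zfp703, Zfp809, Zfp821 and Zfp934 were not called without the level filter, and Zfp36, Zfp219, Zfp326, Zfp335, Zfp445, Zfp655 and Zfp809 were not called in the Tdgf1 siRNA libraries alone. The first step had 5 calls without replicate 1 and 10 without replicate 2 of the morulae. The second had 21 without replicate 2 of the early blastocysts, and 16 and 13 without replicate 1 and replicate 2 of the late blastocysts. Early blastocysts of replicate 2 were nearer morula than those of replicate 1 for 61 of the 88 genes, the median gene having covered 34.4% of its way to the late blastocyst in replicate 2 and 54.1% in replicate 1.

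Of the 10 measured genes on a list of embryonic stem cell and pluripotency regulators, 7 fell between morula and late blastocyst and none rose (20.3% of all genes tested fell and 31.4% rose), with a median of -0.85 on the log2 scale beside 0.13 for all genes. The list was made with earlier results of these data known, and its median gene averaged 47.3 CPM. Of all genes tested at 10 to 50 CPM 15.2% fell and 32.55% rose, and at 50 CPM or more 29.7% fell and 29.0% rose. The listed genes Zfp462, Zfp521 and Zfp423 were under the level filter and not tested. They averaged 0.321, 0.0686 and 0.136 CPM in morulae and 1.73, 0.1585 and 0.472 CPM in late blastocysts, so each of them was higher late, at low levels. Zfp143, a promoter-bound factor that supports Nanog expression in mouse embryonic stem cells, averaged 71.7 ± 8.78, 66.4 ± 8.90 and 33.0 ± 10.5 CPM over the 3 stages (SD, n = 4) and changed by -1.08 ± 0.16 (adjusted p = 0.000404). Zfp296 changed by -1.16 ± 0.18 and Zfp281, a Nanog repressor needed for exit from naive pluripotency, by -0.89 ± 0.17 (log2, SE; adjusted p of 0.000549 and 0.00180). Zfp217, Zfp219, Zfp703 and Zfp706 were the others that fell, with Zfp703 under the level filter in late blastocysts at 3.12 CPM. Zfp207 averaged 274 ± 15.6, 253 ± 27.2 and 253 ± 18.1 CPM and did not pass (-0.11 ± 0.12), and neither did Zfp292 (-0.28 ± 0.29) or Zfp819 (0.02 ± 0.20). Exons of Zfp143, Zfp296, Zfp219, Zfp703 and Zfp706 overlap a gene on the opposite strand, whose reads cannot be separated.

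Of KRAB proteins with known genomic targets, 3 of 5 measured genes fell and none rose (20.3% of all genes tested fell and 31.4% rose). Zfp932, a silencer of endogenous retroviruses, averaged 54.8 ± 6.80, 33.5 ± 3.22 and 27.3 ± 4.82 CPM over the 3 stages (SD, n = 4) and changed by -0.92 ± 0.16 (log2, SE; adjusted p = 0.00109). Zfp445, which keeps imprinted regions methylated, changed by -0.58 ± 0.20 (adjusted p = 0.0365), and Zfp809, which silences murine leukaemia virus in embryonic cells, by -0.51 ± 0.19 (adjusted p = 0.0484). Neither Zfp445 nor Zfp809 passed without the level filter, and Zfp809 did not pass with the replicate block. Zfp568, the repressor of a placental Igf2 promoter, was the most abundant of them, at 200 ± 16.5, 144 ± 23.9 and 150 ± 23.2 CPM, and did not pass (-0.42 ± 0.17, adjusted p = 0.0573). Zfp961 did not pass either (0.04 ± 0.17), and Zfp708 was listed at 0 in every library.

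Of 9 measured genes of RNA, ribosome and splicing functions, 2 fell and 1 rose, where 20.3% of all genes tested fell and 31.4% rose. Zfp36, which brings about decay of AU-rich mRNAs, averaged 13.4 ± 3.33, 5.95 ± 2.37 and 6.13 ± 1.37 CPM (SD, n = 4), with its change passing in the first step (-0.84). Zfp622, whose yeast relative matures the large ribosomal subunit, averaged 84.3 ± 9.62, 85.5 ± 8.90 and 51.4 ± 3.11 CPM, passing in the second (-0.69). Zfp593 stood at 92.6, 103 and 71.4 CPM, did not pass between late blastocyst and morula (-0.37) and passed in the second step (-0.52). Zfp598, the ubiquitin ligase that senses collided ribosomes, was at 58.0, 33.9 and 46.5 CPM and passed in the first step only (-0.72). Zfp326, a member of a complex linking transcription to splicing, rose by 0.59 ± 0.22 (log2, SE; adjusted p = 0.0447), a call that was lost without the level filter, in either siRNA arm alone, with edgeR, with DESeq2 and after quantile normalization, where the change was 0.27. Zfp106, Zfp318, Zfp346 and Zfp830 did not pass, with changes between -0.13 and 0.18.

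Of 11 measured chromatin, SUMO and ubiquitin cofactors, 1 rose and 1 fell, where 31.4% of all genes tested rose and 20.3% fell. Zfp516 was the riser. Its morula mean of 2.88 CPM was under the level filter, so it is in the set through its later stages and its rise is a description. Zfp335, a component of a histone H3K4 methyltransferase complex, fell by 0.76 on the log2 scale (SE 0.18, adjusted p = 0.00620). Zfp451, a SUMO ligase, did not pass (-0.50 ± 0.20, adjusted p = 0.0544, and past the threshold with the replicate block), nor did Zfp532 (0.62 ± 0.27) or Zfp687 (0.50 ± 0.25). Zfp91, a ubiquitin ligase, averaged 95.4 ± 5.47, 85.1 ± 19.8 and 90.5 ± 3.77 CPM and Zfp148, a GC-box binding factor, 79.7 ± 8.35, 64.7 ± 11.3 and 68.9 ± 4.38 CPM (SD, n = 4), and neither passed. Zfp410, Zfp592, Zfp609 and Zfp644 changed by -0.23 to 0.05 without passing.

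Genes with and without the KRAB motif moved in both directions. Of all genes tested 31.4% rose and 20.3% fell, with a median of 0.13 on the log2 scale. Of the 115 with it, 20 rose and 24 fell between morula and late blastocyst, with a median of -0.06. Of the 101 with C2H2 fingers and no KRAB motif, 15 rose and 22 fell, with a median of -0.04 (log2; the difference was not tested). Some of these may carry a KRAB domain that the motif search missed. Of the 5 genes with no C2H2 finger found, Zfp185 and Zfp839 rose and Zfp36, Zfp330 and Zfp703 fell. The pseudogene Zfp939 fell by 1.29 on the log2 scale and averaged 17.7, 8.58 and 5.06 CPM over the 3 stages.

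The machinery that KRAB proteins recruit moved in both directions over the same interval. Of 27 listed corepressor and silencing genes, 10 rose and 10 fell, where 31.4% of all genes tested rose and 20.3% fell. Their median level was 114 CPM, and of all genes tested at 50 CPM or more 29.0% rose and 29.7% fell. Trim28, the KRAB partner itself, averaged 497 CPM in morulae, 395 CPM in early blastocysts and 389 CPM in late blastocysts and changed by -0.36 ± 0.12 (log2, SE; adjusted p = 0.0306). The histone methyltransferase gene Setdb1 rose by 0.76, the maintenance methylation cofactor Uhrf1 by 1.81 and the de novo methyltransferase Dnmt3b by 1.73. Sumo2 fell by 1.55 and Hdac1 by 1.13 on the log2 scale.

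Neighbouring Zfp genes could differ in direction. The neighbours named here were chosen after their values were seen. Counting genes within 500 kb of each other, 101 of the 225 lay in 19 clusters of 3 or more, with 15 risers and 18 fallers, and the 124 others held 22 risers and 33 fallers. Of all genes tested 31.4% rose and 20.3% fell. Members were called in both directions in 4 clusters, in 1 direction in 12 and not at all in 3. The largest, 14 KRAB genes at chr17:21008903-22377281 (mm10), ran from -2.47 to 0.93 with 3 risers and 3 fallers. Within it Zfp52, at 1.34 CPM in late blastocysts against 9.06 CPM in morulae, lies beside Zfp948, at 18.5 CPM in late blastocysts against 9.43 CPM in morulae. Zfp820, the strongest faller, lies beside Zfp229, which averaged 30.0 ± 7.17 CPM in late blastocysts and 14.1 ± 4.58 CPM in morulae (SD, n = 4) and rose by 0.93 ± 0.22 (log2, SE; adjusted p = 0.00611).

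On chromosome 9 the neighbours Zfp599 and Zfp810, at chr9:22055411-22307648 with Zfp653 and Zfp809, also parted. Zfp599 averaged 29.0 CPM in late blastocysts against 74.3 CPM in morulae, and Zfp810 10.98 CPM against 4.86 CPM. A cluster of 3 on chromosome 7 (chr7:7114690-7209998) moved as 1, with Zfp954, Zfp418 and Zfp772 lower by 0.65, 0.71 and 0.57 on the log2 scale. Nearby, at chr7:6172226-6396915, the neighbours Zfp583, Zfp78 and Zfp28 fell, while Zfp444 and Zfp667 at the other end did not pass (0.03 and 0.04). The 10 genes at chr13:66669928-67729173 stayed between -0.65 and 0.27, with 2 fallers.

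**Figure D4:**
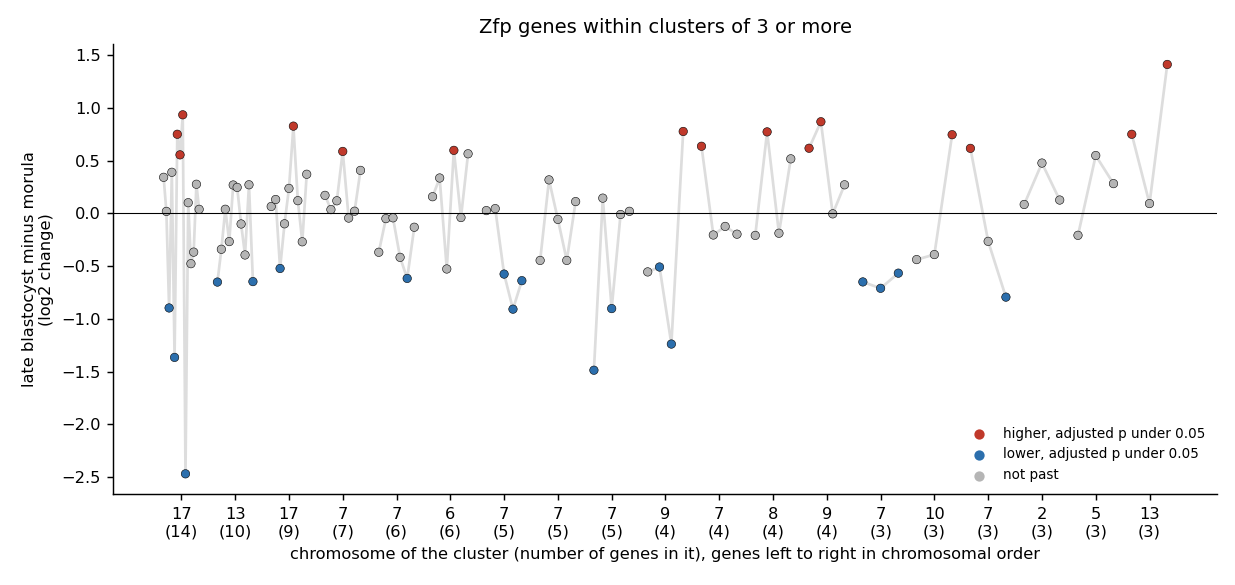
Log2 change between late blastocyst and morula for the 101 Zfp genes in 19 clusters of 3 or more, in chromosomal order within each cluster, coloured by the limma call. The cluster of 14 on chromosome 17 runs from -2.47 to 0.93, and the first of the 2 clusters of 3 on chromosome 7 has all of its genes lower.

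Tdgf1 siRNA left no Zfp gene past the threshold at any stage. By limma on 6 group means, 0 of the 225 passed at any stage or over the average of the 3 stages. Of all genes tested 0% passed in each case, and edgeR and DESeq2 on recovered reads also called 0 Zfp genes. That limma fit did not pair same-numbered libraries, and the p-values, intervals and SEs given below come from it. With the replicate block, which pairs them, 0 Zfp genes passed as well. At an unadjusted p under 0.05 there were 8 Zfp genes in morulae, 3 in early blastocysts, 3 in late blastocysts and 6 over the average, where 1.80%, 1.04%, 2.06% and 2.49% of all genes tested reached it. The median change of the 225 was 0.05, 0.01 and 0.02 on the log2 scale at the 3 stages in order, and that of all genes tested 0.01, 0.00 and 0.02. The 95% interval lay within a log2 change of 1 either way for 204, 209 and 211 of the 225 at the 3 stages in order. For most genes changes above that size are thus outside the interval. Smaller changes are inside or outside it according to the gene, with a median SE of 0.25 at each stage. The pseudocount shrinks the changes of low genes, so the same limit is wider for them in CPM. For a difference of the effect between stages 0 passed, and 3 reached an unadjusted p under 0.05, where 0% and 0.902% of all genes tested did.

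At morula the smallest unadjusted p belonged to Zfp473, whose human relative acts in histone mRNA processing, with 5.52 and 3.48 CPM in Tdgf1 siRNA libraries and 14.1 and 7.98 CPM in controls (-0.83 ± 0.29, log2, SE; limma, adjusted p = 1). It was followed by Zfp790, at 18.6 and 10.2 CPM with Tdgf1 siRNA and 7.47 and 6.27 CPM with control siRNA, and by Zfp28, Zfp646 and Zfp229, all higher with Tdgf1 siRNA (0.72, 0.60 and 0.58). At early blastocyst the order was Zfp101 (0.46), Zfp770 (0.64), Zfp777 (0.52), Zfp78 (-0.47) and Zfp524 (0.50), with adjusted p-values of 0.9996. Zfp101 was at 26.9 and 30.5 CPM with Tdgf1 siRNA against 19.4 and 20.4 CPM with control siRNA. It was higher with Tdgf1 siRNA in all 6 same-numbered pairs, among them the pair in which Tdgf1 was not lower. Zfp101 was chosen by its early blastocyst p-value, which favours agreement of the early pairs. No share of all genes is given for such agreement, so it is a description only.

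At late blastocyst Zfp667 stood at 21.4 and 15.1 CPM with Tdgf1 siRNA and 6.69 and 10.3 CPM with control siRNA (0.85 ± 0.23, log2, SE; 95% interval 0.35 to 1.36; limma, adjusted p = 0.9999). Zfp143 stood at 45.3 and 38.1 CPM with Tdgf1 siRNA and 23.5 and 25.3 CPM with control siRNA (0.69 ± 0.20, 95% interval 0.26 to 1.12, adjusted p = 0.9999). In neither gene did the arms overlap, which was so for every gene named by its p-value at a single stage and is a description only. Both arms of Zfp143 lay under all its morula libraries. Zfp219 (0.56), Zfp534 (0.46) and Zfp418 (0.47) came next. Over the average of the stages Zfp790 (0.38), Zfp524 (0.36), Zfp777 (0.31), Zfp563 (-0.28) and Zfp534 (0.29) had the smallest p-values. The 2 arms did not overlap for 81 Zfp genes in morulae, 60 in early blastocysts and 65 in late blastocysts, where 27.5%, 19.4% and 31.9% of all genes tested did not overlap. The average without the early blastocyst pair in which Tdgf1 was not lower also called 0 Zfp genes.

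**Figure D5:**
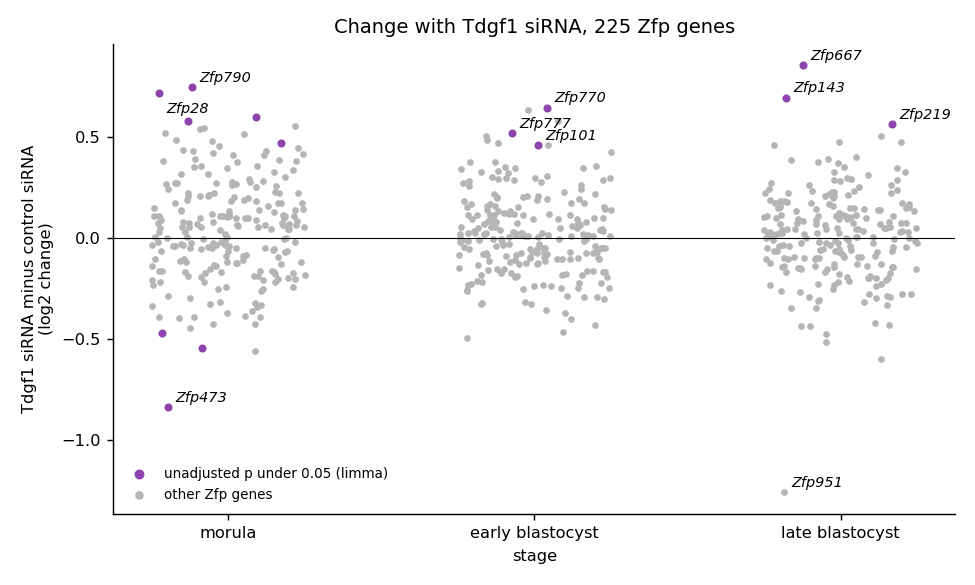
Log2 change with Tdgf1 siRNA against control siRNA (vertical) for 225 Zfp genes at each stage, with genes at an unadjusted p under 0.05 in purple, and the 3 smallest p-values of each stage and Zfp951 labelled. Points centre near 0 at all stages and none passed after adjustment, and Zfp951 at late blastocyst is the lowest point.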

How the data were processed

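RNA was measured by bulk RNA-seq (SMARTer Ultra Low Input amplification and NEBNext libraries, per the labels' protocols) in 12 libraries of injected embryos, 2 for each of 6 groups. The submitters' processing notes name HISAT2 2.1.0, HTSeq, Cufflinks, edgeR and the mm10 build, with no roles. The deposited table is headed RPKM, but its values carry no gene length: every column sums to 279174 and 100% of the values are whole reads within 0.01 reads, so they are treated as CPM as the authors deposited them, divided by a constant of 3.582. The design assumed RPKM, and the log-scale test it named was kept. Whether reads were counted by strand is not stated in the labels.

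The deposited values were log2-transformed after adding 1 (equal to 3.582 CPM) for the 10751 rows with a mean of at least 1. Stages were compared with limma 3.58.1 (R 4.3.3) on the means of same-numbered Tdgf1 siRNA and control libraries, and siRNA arms with limma on 6 group means over 12 libraries, with Benjamini-Hochberg adjustment over all 10751 rows. Same-numbered libraries deviated together in the 3 stages (correlations of 0.458, 0.593 and 0.101), so the numbers were taken to pair the arms, from the data and not from the labels, and a fit with the replicate number as a block was an alternative. Other alternatives were quantile normalization, another pseudocount, other level filters, single arms, left-out replicates, and edgeR 4.0.16 and DESeq2 1.42.0 on the recovered reads. The fits were also run on simulated libraries, drawn independently and with the same dispersion for every gene. Real same-numbered libraries deviated together, so that run does not show how the fits behave on these data.

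The members and lists were chosen with earlier results of these data known. Genes named were those of the role lists, the 10 largest called changes in each direction between late blastocyst and morula, the 5 largest in each other stage comparison, the 5 smallest p-values of each siRNA comparison, the 10 highest levels per kilobase, and 3 rows either side of the threshold. Gene models came from GENCODE M21 and promoters from RefSeq (GRCm38.p6). Tables were made with Python 3.11.15, pandas 2.3.3 and numpy 2.4.6. Reads are not unique molecules, so the limit of 3 reads covers counting error only.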

Additional observations from a re-analysis of the deposited data

How the results depend on the processing

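Of the called Zfp genes, 88 between late blastocyst and morula, 27 in the first step, 36 in the second and 3 for the second step minus the first, none of those named by the rule changed direction under any alternative run, and genes named outside the rule were not followed one by one. Without a level filter the counts were 53, 0, 12 and 0, and with a filter at a mean of 5, which 82 of the genes passed, they were 37, 17, 18 and 1. Quantile normalization gave 104, 32, 60 and 6, and 12 libraries fitted as 6 group means gave 47 in the first step, 63 in the second and 25 for their difference. Control libraries alone gave 17 in the first step and 1 for the difference, and Tdgf1 siRNA libraries alone gave 15 in the second step and 1 for the difference. With edgeR the counts were 94, 30, 40 and 2, and with DESeq2 101, 36, 48 and 11. Leaving out a replicate gave 44 to 64, 5 to 28, 13 to 42 and 0 to 6 calls. The cause was not tested, beyond there being fewer libraries or other numbers of genes in those fits. No share of all genes is given beside these counts, so they do not set the Zfp genes against others. With the replicate block the counts were 86, 29, 35 and 2. In the siRNA comparisons the block left 0 Zfp genes past the threshold and 19, 8 and 12 at an unadjusted p under 0.05 at the 3 stages in order, against 8, 3 and 3 without it. No share of all genes is given for the block, so these counts do not set the Zfp genes against others. The block changed no call of a named gene in these siRNA comparisons. Leaving out any library, with the lone library of its group assumed to vary like the others, gave 0 to 0 siRNA calls. At 2 libraries a group, small siRNA changes are not resolved.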

Other observations

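Zfp951, a gene outside the naming rule and chosen after its values were seen, had libraries that parted by replicate number. In morulae it was at 10.1 and 16.9 CPM in the libraries of replicate 1 and at 36.1 and 48.0 CPM in those of replicate 2, and in early blastocysts at 7.71 and 11.5 CPM against 14.7 and 20.3 CPM. In late blastocysts the order of the replicates turned and the Tdgf1 siRNA library was the lower of both pairs, with 20.9 CPM (Tdgf1 siRNA) and 40.1 CPM (control) in replicate 1 and 2.03 CPM (Tdgf1 siRNA) and 14.4 CPM (control) in replicate 2. Its siRNA change there, -1.26 on the log2 scale, was the lowest of the 225 Zfp genes, with an unadjusted p of 0.0835 by limma and an adjusted p of 0.0641 with the replicate block.

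The libraries of replicate 1 and replicate 2 were apart, with no overlap, at each of the 3 stages for 20 of the 225 Zfp genes (8.89%), where 10.3% of all genes tested were. Besides Zfp951 these included Zfp934, at 1.38 and 2.80 CPM in replicate 1 and 5.80 and 6.41 CPM in replicate 2 of the morulae, and at 11.96 and 13.1 CPM against 19.5 and 21.1 CPM in late blastocysts. Zfp120 was at 12.9 and 13.3 CPM in replicate 1 and 22.3 and 23.1 CPM in replicate 2 of the morulae, and at 17.6 and 17.7 CPM against 23.9 and 23.96 CPM in early blastocysts. What the replicate numbers stand for is not stated in the labels.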
